A study of Mus musculus with 4 samples.

Results

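The 8 genes described here encode cell-surface markers used to sort skeletal progenitors, and their RNA was followed through 10 days of culture of a mouse chondrocyte line. They are Cd24a, Thy1, Eng, Nt5e, Ly6a, Alcam, Mcam and Pdpn, chosen by name from a table of 24499 genes, and all 8 of 8 were in it. The cells are wild-type growth plate-like chondrocytes, a mouse line kept in medium with serum, ascorbic acid and insulin-transferrin-selenium. The groups are the same cells at day 1, day 3, day 5 and day 10 of culture, with no other treatment or genotype. The extraction protocol in the labels speaks of sorted cells without naming a gate. Whether the sort used a surface protein was not tested. The labels list 1 sample a day. The table holds 15 libraries, 3 on day 1 (numbered 1, 3 and 4) and 4 on each later day (numbered 1 to 4), and the labels do not say what the numbers stand for. The p-values measure only the spread between these libraries, which may be technical.

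In flow cytometry, skeletal stem and progenitor cells are separated from their descendants by combinations of surface proteins. Several of these markers (CD90, CD105 and CD73, encoded by Thy1, Eng and Nt5e) come from the definition of cultured human mesenchymal stromal cells, while Sca-1, encoded by Ly6a, is a marker of mouse progenitors. Cd24a, Thy1, Ly6a and Nt5e encode proteins held in the membrane by a glycosylphosphatidylinositol (GPI) anchor, and Eng, Alcam, Mcam and Pdpn encode proteins that span the membrane. None of the markers is restricted to progenitors. Eng and Mcam are also strong in endothelium, Mcam in pericytes, and Pdpn in lymphatic endothelium and young osteocytes.

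Reads assigned to genes numbered 12492537 to 18841621 per library. Levels are in CPM, reads scaled per library by the authors so that column totals lie near but not at the same value, and a single read equals 0.0523 to 0.0787. All 10 chondrocyte markers looked at (Col2a1, Acan and Sox9 among them) had reads on every day, and their summed level was 2974 to 28717 CPM. The 8 endothelial markers summed to 0 to 0.904 CPM in a library and the 4 lymphatic endothelial markers to 0 to 0.452 CPM. The 10 leukocyte markers summed to 2.64 to 6.52 CPM, nearly all of it Cd68, and Itgam and Cd3e had no reads. The osteoblast and osteocyte markers were summed over 8 genes, and their libraries held 2.16 to 4.80 CPM at days 1 and 3, then 10.7 to 68.9 at day 5 and 53.9 to 2158 at day 10. In bulk RNA, fewer cells of a type and less RNA per cell cannot be told apart.

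The 8 markers differed widely in level (mean CPM per kb of exon, from the GENCODE M21 exon lengths). On day 1 Cd24a stood at 634 CPM per kb, Ly6a at 20.2, Mcam at 1.15, Nt5e at 1.04, Eng at 0.661, Pdpn at 0.127, Alcam at 0.0878 and Thy1 at 0.0274. The day 1 libraries of neighbours in this order overlapped for Mcam and Nt5e and for Pdpn and Alcam. On day 10 the order by mean was Cd24a at 152 CPM per kb, Ly6a at 13.0, Nt5e at 6.63, Pdpn at 1.38, Mcam at 0.763, Eng at 0.436, Thy1 at 0.183 and Alcam at 0.0854. Of these, only Cd24a had day 10 libraries that did not overlap with those of the next gene. Nt5e moved above Mcam by day 3, without overlap of the libraries, and Pdpn was above Mcam and Eng in the day 5 and day 10 means, with overlap on both days. In CPM not divided by length, Cd24a ranked 35 from the top of the table on day 1, 214 on day 3, 464 on day 5 and 330 on day 10.

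**Figure D1:**
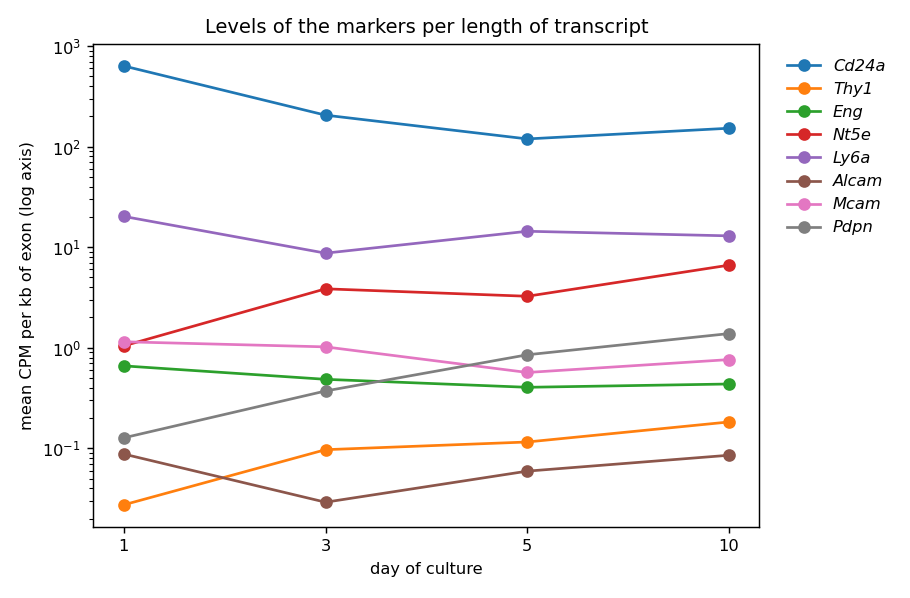
Mean level of each marker (CPM per kb of exon, log axis) against day of culture, 1 line per gene, with 3 libraries on day 1 and 4 on each later day. Cd24a is above the other 7 on every day, from 634 on day 1 to 152 on day 10, and Nt5e and Pdpn end above their day 1 level.

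Of the 8 markers, 6 reached 1 CPM when the 4 day means were averaged and entered the test, a fit with limma over 12109 genes on log2(CPM + 1). Thy1 and Alcam were below that level and are described by their reads. Between day 1 and day 3, 2 of the 6 tested markers passed at an adjusted p of 0.05, Nt5e upward and Cd24a downward, where 31.8% of all genes passed (15.7% upward and 16.1% downward). From day 3 to day 5, 1 passed (Cd24a, lower), against 9.13% of all genes (5.1% higher, 4.03% lower). From day 5 to day 10 limma called 0 of the 6, against 5.77% of all genes (3.75% higher, 2.02% lower). In that step 0 of the 6 had an unadjusted p under 0.05 by limma, and edgeR and DESeq2 called 0 as well. For Nt5e the unadjusted p in this step was 0.021 with edgeR (adjusted p = 0.14) and 0.008 with DESeq2 (adjusted p = 0.064). Over the whole course, day 10 against day 1, 3 of 6 passed (Nt5e and Pdpn higher, Cd24a lower), against 49.4% of all genes (24.3% higher, 25.1% lower). For day 5 against day 1 it was 3 of 6 (Nt5e higher, Cd24a and Eng lower), against 50.0% (25.2% higher, 24.8% lower). For day 10 against day 3 limma called 0 of 6, against 22.2% (12.5% higher, 9.65% lower). There the lowest unadjusted p by limma was 0.05, for Cd24a, and edgeR and DESeq2 called 0. The unadjusted p of Pdpn was 0.033 with edgeR (adjusted p = 0.1) and 0.022 with DESeq2 (adjusted p = 0.07). With DESeq2 it was 0.043 for Nt5e and 0.046 for Cd24a (adjusted p = 0.12 each). Differences from day 1 all rest on the same 3 libraries. A share of 3 in 6 is near that of all genes and is no result about these markers. The moderated F test for any difference among the 4 days called 2 of the 6, Cd24a (adjusted p = 3.6e-06) and Nt5e (adjusted p = 0.002), against 55.2% of all genes.

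**Figure D2:**
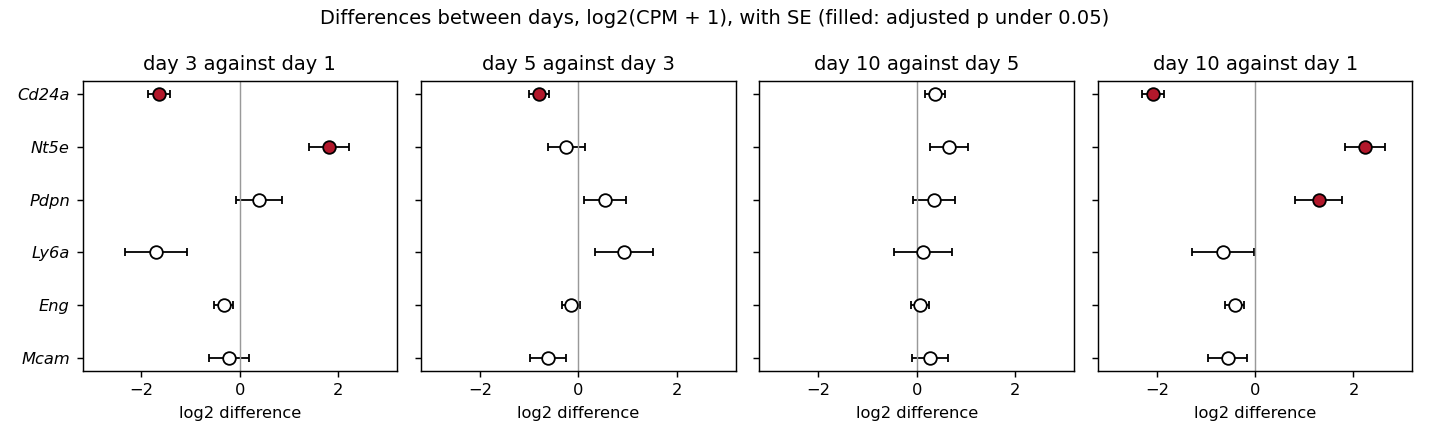
Log2 difference of CPM + 1 between days for the 6 tested markers (x axis) with SE bars, in 4 comparisons. Filled points mark an adjusted p under 0.05 by limma. Cd24a is the lowest on day 10 against day 1, at -2.08, and Nt5e the highest, at 2.24.

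Cd24a (chromosome 10, 43578284 to 43584265, plus strand, GRCm38) encodes CD24, a small and heavily glycosylated GPI-anchored protein that binds P-selectin and is used to mark progenitors in several tissues. At day 1, libraries 1, 3 and 4 held 1662, 1554 and 1689 CPM. The day 3 libraries 1 to 4 held 468, 711, 471 and 469 CPM. The day 5 libraries held 415, 340.3, 245 and 229 CPM, and the day 10 libraries held 472, 317, 460.3 and 322 CPM. Every later library was thus below every day 1 library, and day 5 did not overlap with day 3, while day 10 overlapped with both. The Cd24a mean was 1635 ± 71.4 CPM at day 1 (SD, n = 3) and 529.8 ± 121 CPM at day 3 (SD, n = 4), and limma put the fall at -1.65 ± 0.22 on the log2 scale (SE, adjusted p = 8.7e-05). It fell again to 307 ± 87.1 CPM on day 5 (log2 -0.80 ± 0.20 from day 3, adjusted p = 0.026). On day 10 it stood at 393 ± 85.1 CPM, which differed from day 1 by -2.08 ± 0.22 (adjusted p = 3.8e-06) and did not pass against day 5 (0.37 ± 0.20, adjusted p = 0.28). The call from day 3 to day 5 was lost without library 2, 3 or 4 of day 3 or library 3 or 4 of day 5, with adjusted p of 0.051, 0.059, 0.06, 0.08 and 0.084. The 6 markers of dividing cells (Mki67, Top2a, Ccnb1, Cdk1, Mcm2 and Pcna) summed to 2201 to 2713 CPM in the day 1 libraries, 1013 to 1583 in those of day 3, 532 to 942 at day 5 and 592 to 1153 at day 10. They were highest on day 1 as Cd24a was, and their part in the result was not tested. Of the distinct 50-base stretches of Cd24a transcripts, 2.75% also occur in transcripts of another annotated gene, the predicted gene Gm6212.

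**Figure D3:**
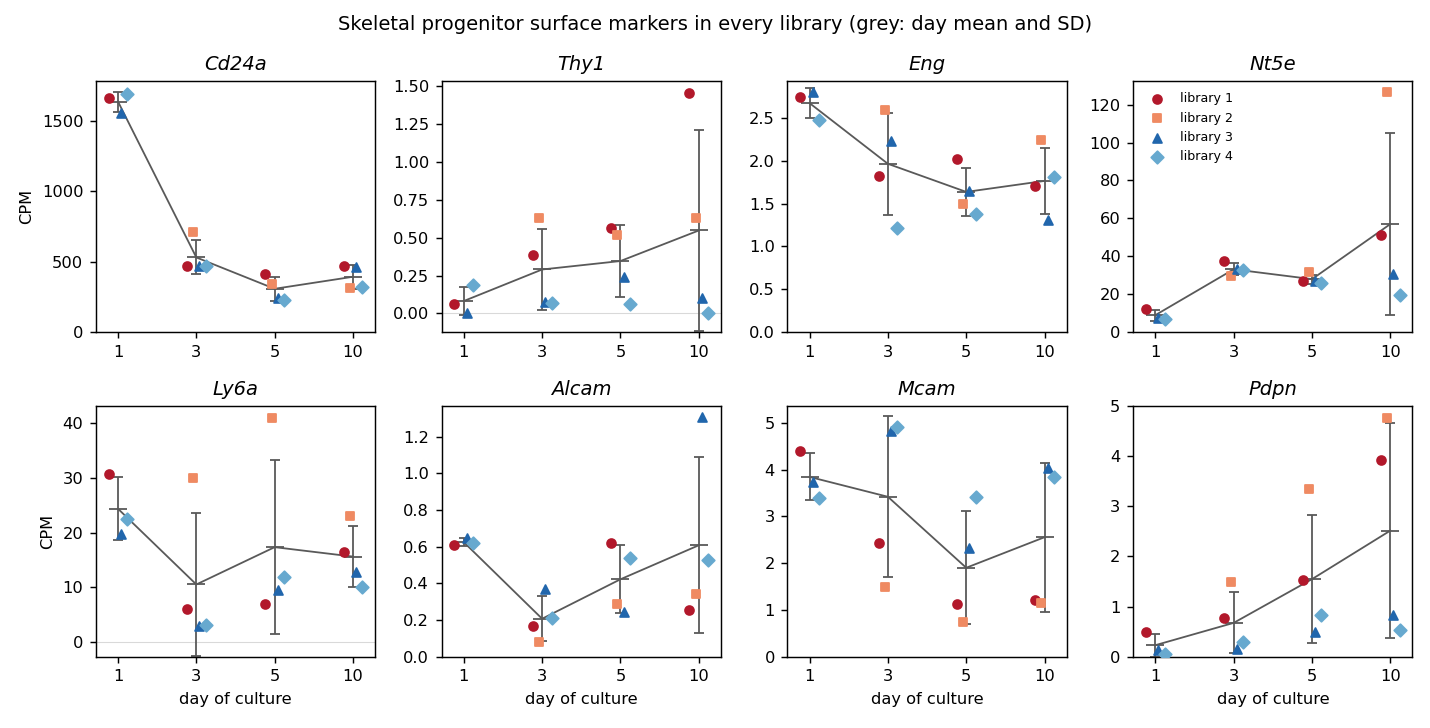
CPM of each marker (y axis) by day of culture (x axis) in every library, coloured by library number, with the day mean and SD in grey (n = 3 on day 1, 4 later; SD bars can pass below 0). Cd24a drops after day 1 in all libraries, and libraries 1 and 2 lie above libraries 3 and 4 for Pdpn and below them for Mcam on days 3, 5 and 10.

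Nt5e (chromosome 9, 88327197 to 88372092, plus strand) encodes CD73, the ectoenzyme that turns AMP into adenosine outside the cell. At day 1 the levels were 12.4, 7.70 and 6.87 CPM. The day 3 libraries held 37.4, 29.5, 33.1 and 32.6 CPM and the day 5 libraries 27.1, 31.5, 27.1 and 26.1 CPM. The day 10 libraries held 51.04, 126, 30.8 and 19.8 CPM. All 12 later libraries were above all 3 of day 1, and the day 10 libraries spread from below to far above those of day 5. Nt5e rose by 1.81 ± 0.41 on the log2 scale up to day 3 (adjusted p = 0.0043), its mean going from 8.98 ± 2.97 CPM (SD, n = 3) to 33.2 ± 3.24 (SD, n = 4). Against day 1 it was also higher on day 5, at 27.96 ± 2.41 CPM (log2 1.57 ± 0.41, adjusted p = 0.0053), and on day 10, at 57.03 ± 48.1 CPM (log2 2.24 ± 0.41, adjusted p = 0.00041). The step from day 5 to day 10 did not pass (0.66 ± 0.38, adjusted p = 0.31). Without library 2 of day 10, the difference between day 10 and day 3 turned from 0.43 to -0.07, while the difference from day 1 stood at 1.75 (adjusted p = 8e-05). With libraries 3 and 4 alone the difference of day 3 from day 1 was 2.03 (adjusted p = 0.00034). With libraries 1 and 2 alone it was 1.36 (adjusted p = 0.18), in a fit whose day 1 group is library 1 only, since day 1 has no library 2, and in which that library is assumed to vary like the other groups.

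The other genes of the extracellular ATP and adenosine cascade were looked at around Nt5e. Of 22 listed genes 16 were tested, and at day 10 against day 1, 8 were higher and 0 lower, where 24.3% of all genes were higher and 25.1% lower, with a median log2 difference of 1.12 beside -0.01 over all genes. Entpd2, which splits extracellular ATP, had means of 0.174, 5.61, 11.4 and 14.7 CPM in order of day and rose by 3.65 ± 0.29 on the log2 scale by day 10 (adjusted p = 2.8e-07). Panx3, a channel of maturing chondrocytes that releases ATP, rose from 10.32 to 94.4 CPM at day 10 (log2 2.39 ± 0.71, adjusted p = 0.012), where its SD was 99.5. Entpd3 rose as well (log2 2.32 ± 0.84, adjusted p = 0.032), with an SD of 26.3 around its day 10 mean of 15.1 CPM. The related enzyme Entpd1, also called CD39, had 0 reads on days 1 and 3 and 14 on each of days 5 and 10. Alpl, which also splits AMP, stood at 38.9 CPM on day 1, 2.70 on day 3, 8.21 on day 5 and 265 (SD 290) on day 10. Its fall to day 3 passed (log2 -3.41 ± 0.88, adjusted p = 0.0089), as did its rise from day 5 to day 10 (4.69 ± 0.82, adjusted p = 0.0042). Day 10 against day 1 did not pass (adjusted p = 0.071). From day 5 to day 10, 1 of the 16 tested genes was higher (Alpl) and 3 were lower, against 3.75% and 2.02% of all genes. The adenosine receptor genes were near the floor. Adora1 had 4, 28, 16 and 8 reads on days 1, 3, 5 and 10 over all libraries, Adora2a 4, 13, 8 and 10, Adora2b 6, 6, 7 and 7, and Adora3 none.

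Pdpn (chromosome 4, 143267431 to 143299564, minus strand) encodes podoplanin, a mucin-type membrane protein that binds CLEC-2 and, as E11, marks young osteocytes. Day 1 gave 0.487, 0.144 and 0.0619 CPM, from 8, 2 and 1 reads. The day 3 libraries held 0.773, 1.495, 0.149 and 0.285 CPM. The day 5 libraries held 1.52, 3.34, 0.488 and 0.839 CPM, and the day 10 libraries 3.93, 4.76, 0.837 and 0.527 CPM. All libraries of days 5 and 10 were above day 1, those of day 3 overlapped with it, and on each later day libraries 1 and 2 were above libraries 3 and 4. Mean Pdpn was 0.231 ± 0.226 CPM at day 1 (SD, n = 3) and 2.51 ± 2.15 CPM at day 10 (SD, n = 4), a rise of 1.29 ± 0.47 on the log2 scale (adjusted p = 0.032). On day 5 it was at 1.55 ± 1.27 CPM, which did not pass against day 1 (0.94 ± 0.47, adjusted p = 0.11) but did with edgeR on the recovered reads (2.70, adjusted p = 0.04). Because log2(CPM + 1) understates changes near 0, the pooled reads were also compared. They numbered 11 at day 1 and 168 at day 10, which gave a scaled ratio of 10.8 with a 95% exact binomial interval of 5.89 to 22.1 that covers counting error only. The call for day 10 was lost without library 3 or 4 of day 1 or library 1 or 2 of day 10, with adjusted p of 0.084, 0.097, 0.09 and 0.084. The 8 osteoblast and osteocyte markers summed to 438, 2158, 76.0 and 53.9 CPM in the day 10 libraries 1 to 4, and to 31.7, 68.9, 10.7 and 12.2 CPM on day 5. On both days the libraries with more Pdpn were those with more of these markers, and their part in the result was not tested. The 4 lymphatic endothelial markers, as given above, were near 0.

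For members with a promoter in the RefSeq table (GRCm38.p6; 5 of 8, the exceptions being Cd24a, Thy1 and Ly6a) the 250 bases before the start were read. Those of Pdpn and Eng are shown because limma called Pdpn higher on day 10 and Eng lower on day 5, each against day 1. Both calls were lost in some alternatives, and neither gene passed the F test (adjusted p = 0.092 for Pdpn and 0.16 for Eng). A further reason is that GENCODE and RefSeq place their starts at the same base.
Pdpn, chr4:143299565-143299814, minus strand: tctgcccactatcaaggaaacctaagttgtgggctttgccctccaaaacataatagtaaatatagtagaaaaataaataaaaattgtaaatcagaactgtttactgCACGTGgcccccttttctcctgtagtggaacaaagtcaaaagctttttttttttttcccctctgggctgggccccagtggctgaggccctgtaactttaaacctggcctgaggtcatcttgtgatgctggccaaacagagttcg
Eng, chr2:32646345-32646594, plus strand: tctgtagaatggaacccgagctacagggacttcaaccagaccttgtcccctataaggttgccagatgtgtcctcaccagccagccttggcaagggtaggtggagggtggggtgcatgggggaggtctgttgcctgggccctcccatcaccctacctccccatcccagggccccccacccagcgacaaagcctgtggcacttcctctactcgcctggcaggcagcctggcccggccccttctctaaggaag
The capitals mark CACGTG, an E-box that Pdpn holds once and that 6.02% of the 32851 promoter windows of this length hold. In all, 6 motifs were searched on both strands, and besides CACGTG these were GGGCGG (in 32.7% of windows), CCAAT (33.8%), TATAAA (12.4%), TGACGTCA (1.55%) and TGANTCA (6.75%). Neither sequence holds any of these 5 in this window. The Nt5e window held GGGCGG 4 times with overlapping matches, the Mcam window 5 times and the Alcam window 2 times, and Mcam also held TGACGTCA once. The share of G and C was 43.2% for Pdpn, 62.4% for Eng, 72.0% for Nt5e, 73.6% for Mcam and 69.2% for Alcam, beside a median of 52.4% over all windows.

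Ly6a (chromosome 15, 74994877 to 74998031, minus strand) encodes Sca-1, a GPI-anchored protein of the Ly6 family that marks mouse haematopoietic stem cells and mesenchymal progenitors. Levels at day 1 were 30.8, 19.8 and 22.5 CPM. The day 3 libraries held 6.08, 30.1, 2.90 and 2.99 CPM and the day 5 libraries 6.98, 41.1, 9.51 and 11.8 CPM. The day 10 libraries held 16.5, 23.0, 12.8 and 10.09 CPM. Library 2 was the highest on each day it exists, and on day 3 it alone reached the day 1 range. The means were 24.4 ± 5.75 (SD, n = 3), 10.5 ± 13.1, 17.3 ± 15.9 and 15.6 ± 5.596 CPM (n = 4 each) in order of day. No comparison passed in this fit, and day 3 against day 1 stood at -1.71 ± 0.63 (adjusted p = 0.051). Without library 2 of day 3 the difference was -2.38 (adjusted p = 0.0028), day 5 stood 1.60 above day 3 (adjusted p = 0.037) and day 10 stood 1.73 above it (adjusted p = 0.016). Without library 2 of day 5 or of day 10 the value stayed at -1.71, with an adjusted p of 0.027 and 0.048. With libraries 3 and 4 of each day alone, day 3 was at -2.49 from day 1 (adjusted p = 7.2e-05) and day 10 at 1.65 above day 3 (adjusted p = 0.00035). In 23 of 32 alternatives day 3 against day 1 still did not pass. Among these were edgeR (-1.21, adjusted p = 0.22), DESeq2 (-1.22, 0.24) and libraries 3 and 4 averaged into 1 (-1.48, 0.22). With libraries 1 and 2 alone it was at -1.10, against library 1 as the only one of day 1. Day 10 against day 3 was at 0.59 with edgeR (adjusted p = 0.55).

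Copies of Ly6a limit its counts. Of the distinct 50-base stretches of its transcripts 19.0% also occur in transcripts of other genes, namely Ly6c1, Ly6c2, Ly6i and I830127L07Rik, so reads could be split or lost between them. Ly6c1 stood at 21.4 ± 1.77, 17.4 ± 16.0, 39.1 ± 17.2 and 31.1 ± 4.56 CPM on days 1, 3, 5 and 10 and did not pass for day 10 against day 1 (adjusted p = 0.34). Ly6i had 0 reads before day 10 and 5 there. Of 27 listed genes of the Ly6 and uPAR family 26 were in the table and 4 were tested, and at day 10 against day 1, 2 were higher and 1 lower. Over all genes 24.3% were higher and 25.1% lower in this comparison. Ly6e rose from 62.6 to 158 CPM (log2 1.27 ± 0.26, adjusted p = 0.001) and Lynx1 from 5.09 to 8.91 CPM (0.65 ± 0.24, adjusted p = 0.035). Plaur, the receptor of urokinase, fell from 23.5 to 10.6 CPM (-1.24 ± 0.42, adjusted p = 0.022). Ly6a is known as an interferon-inducible gene in mouse cells. Of 20 interferon-response genes tested, day 10 against day 1 gave 19 higher and 0 lower, beside 24.3% and 25.1% of all genes. The median of these 20 was 2.46, beside -0.01 over all genes. Among them Ifit3 rose from 0.669 to 21.2 CPM (3.52 ± 0.50, adjusted p = 4.7e-05) and Oasl2 from 0.365 to 15.4 CPM (3.51 ± 0.48, adjusted p = 3.5e-05). Ly6a was at -0.65 ± 0.63 (adjusted p = 0.41) in the same comparison.

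Eng (chromosome 2, 32646595 to 32682669, plus strand) encodes endoglin (CD105), a co-receptor for TGF-beta and BMP ligands. At day 1 its levels were 2.74, 2.81 and 2.47 CPM. The day 3 libraries held 1.82, 2.60, 2.23 and 1.21 CPM, the day 5 libraries 2.03, 1.498, 1.65 and 1.38 CPM and the day 10 libraries 1.71, 2.24, 1.31 and 1.81 CPM. All libraries of days 5 and 10 were below all of day 1, and day 3 overlapped with it. Between day 1 (2.67 ± 0.176 CPM, SD, n = 3) and day 5 (1.64 ± 0.282 CPM, SD, n = 4) Eng fell by 0.48 ± 0.19 on the log2 scale, with an adjusted p of 0.049, just inside the threshold. The call was lost in 19 of 31 alternatives, among them leaving out library 1, 3 or 4 of day 1 (adjusted p = 0.11, 0.13 and 0.084), library 1 or 3 of day 3 (0.06 each), library 2, 3 or 4 of day 5 (0.081, 0.08 and 0.11) or library 1 of day 10 (0.06). Eng also lost it with edgeR (adjusted p = 0.055), DESeq2 (0.057), a pseudocount of 0.25 (0.055) and libraries 3 and 4 averaged (0.13). On day 10 it stood at 1.77 ± 0.382 CPM (-0.42 ± 0.19, adjusted p = 0.085), and without library 2 of day 10 at -0.50 (adjusted p = 0.049). Its exons share 61 bases (1.5%) with Fpgs on the opposite strand, whose level was 70.04 ± 1.79 CPM on day 1 and 45.9 ± 4.88 on day 5.

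Of 24 listed partners, ligands and targets of endoglin 21 were tested, of which 6 were higher and 5 lower at day 10 against day 1, with a median log2 difference of 0.11. Over all genes 24.3% were higher and 25.1% lower, so the count is near the background and is no result about the list. Betaglycan (Tgfbr3), the other co-receptor of this kind, rose from 19.1 ± 7.28 to 155 ± 23.8 CPM (log2 3.00 ± 0.21, adjusted p = 1.1e-07). The signalling receptor Tgfbr2 rose from 53.7 to 123 CPM (1.18 ± 0.16, adjusted p = 3.6e-05), and Mmp14, the protease that sheds endoglin, from 307 to 685 CPM (1.12 ± 0.16, adjusted p = 6.3e-05). Acvrl1, the receptor that works with endoglin in endothelium, had 0, 6, 37 and 42 reads in order of day, and the ligands Gdf2 and Bmp10 had none in any library. Id1 and Id2, targets of BMP signalling, fell from 189 to 104 CPM (-1.10 ± 0.40, adjusted p = 0.032) and from 32.05 to 16.3 CPM (-0.95 ± 0.29, adjusted p = 0.013). The inhibitory Smad6 fell from 70.8 to 45.9 CPM (-0.74 ± 0.25, adjusted p = 0.024).

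Mcam (chromosome 9, 44134469 to 44142727, plus strand) encodes CD146, an adhesion protein of pericytes and endothelium that binds laminin containing the chain encoded by Lama4. Day 1 levels were 4.39, 3.74 and 3.402 CPM. The day 3 libraries held 2.43, 1.495, 4.83 and 4.91 CPM, the day 5 libraries 1.13, 0.749, 2.32 and 3.42 CPM and the day 10 libraries 1.20, 1.15, 4.03 and 3.84 CPM. On each later day libraries 1 and 2 were below libraries 3 and 4, and on day 10 libraries 3 and 4 lay within the day 1 range. No comparison passed. Day 5 against day 1 was at -0.83 ± 0.40 (adjusted p = 0.096), or -1.06 without library 4 of day 5 (adjusted p = 0.045), and day 10 against day 1 at -0.56 ± 0.40 (adjusted p = 0.26). With libraries 3 and 4 alone day 10 was at 0.11 from day 1 (adjusted p = 0.61). With libraries 1 and 2 alone it was at -1.31 (adjusted p = 0.086), again against library 1 as the only one of day 1. The 8 markers of pericytes and smooth muscle summed to 1148 to 1527 CPM in the day 1 libraries, 685 to 820.1 at day 3, 1160 to 1683 at day 5 and 1347 to 3072 at day 10, nearly all of it Acta2 and Cspg4. Abcc9 and Kcnj8 had no reads on days 1 and 3, and Kcnj8 none on day 10. Their part in the Mcam levels was not tested. Lama4 rose from 0.859 ± 0.423 to 70.2 ± 43.7 CPM (log2 5.08 ± 0.41, adjusted p = 3.4e-07).

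Mcam and Pdpn, and Thy1 with them, separated the libraries by number. On each of days 3, 5 and 10 libraries 1 and 2 held more Pdpn and Thy1 and less Mcam than libraries 3 and 4, without overlap. At day 10 these library pairs averaged 4.34 and 0.682 CPM for Pdpn, 1.04 and 0.0523 for Thy1, and 1.18 and 3.93 for Mcam. Among the 12109 tested genes 7.28% showed such a separation in a constant direction on all 3 days, 4.32% with libraries 1 and 2 higher and 2.96% with them lower. Thy1 is not among these 12109 genes. The pattern was noticed in these values, and whether the numbers mark a culture, a day of work or a sequencing run was not tested.

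Thy1 (chromosome 9, 44043384 to 44048579, plus strand) encodes CD90, a GPI-anchored protein of the immunoglobulin superfamily found on thymocytes, neurons and fibroblasts. At day 1 there were 1, 0 and 3 reads, or 0.0609, 0 and 0.186 CPM, and 0 reads in library 3 allow a level of up to 0.216 CPM, for counting error only. The later libraries 1 to 4 held 7, 8, 1 and 1 reads on day 3, 10, 9, 4 and 1 on day 5 and 23, 11, 2 and 0 on day 10. Its highest value was 1.46 CPM, in library 1 of day 10, and the days overlapped. The pooled reads were 4, 17, 24 and 36 in order of day. The ratio of day 10 to day 1 was 6.38 after scaling, with a 95% exact binomial interval of 2.29 to 24.7. Library 2, absent from day 1, held 11 of the 36 reads of day 10. Tested without a filter, Thy1 did not pass for day 10 against day 1 with limma (0.43, adjusted p = 0.23) or edgeR (2.59, adjusted p = 0.12).

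Alcam (chromosome 16, 52248996 to 52454074, minus strand) encodes CD166, an adhesion protein that binds CD6 and itself. At day 1 there were 10, 9 and 10 reads (0.609, 0.648 and 0.619 CPM). The later libraries 1 to 4 held 3, 1, 5 and 3 reads on day 3, 11, 5, 4 and 9 on day 5 and 4, 6, 25 and 7 on day 10. All day 3 libraries were below all of day 1, and library 3 of day 10 was the highest of all, at 1.31 CPM. The pooled reads of day 3 against day 1 gave a ratio of 0.330 after scaling (12 against 29 reads, 95% exact binomial interval 0.153 to 0.667). Library 2, absent from day 1, was the lowest of day 3. Without a filter this step did not pass with limma (-0.43, adjusted p = 0.09) or edgeR (-1.56, adjusted p = 0.11). The partner gene Cd6 had 0 to 7 reads on a day over all its libraries.

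Ligands and membrane partners of Pdpn, Thy1, Mcam, Alcam and Cd24a made up a list of 23 genes, of which 16 were tested. At day 10, 5 of these were higher and 3 lower than at day 1, where 49.4% of all genes passed in either direction, with a median of 0.14 beside -0.01 over all genes. After Lama4, Lama5 was highest (14.4 to 168 CPM, log2 3.41 ± 0.40, adjusted p = 1e-05). Adgre5, also called CD97 and a partner of Thy1, rose from 5.16 to 22.3 CPM (1.94 ± 0.22, adjusted p = 8.4e-06). Of the 3 genes for cytoskeletal linkers of podoplanin, Rdx fell from 326 to 215 CPM (-0.60 ± 0.09, adjusted p = 7.1e-05) and Msn from 452 to 348 CPM (-0.41 ± 0.16, adjusted p = 0.044), while Ezr, at 80.2 and 95.4 CPM, did not pass (0.24 ± 0.18, adjusted p = 0.27). The integrin gene Itgav fell as well (155 to 114 CPM, -0.47 ± 0.17, adjusted p = 0.028). The podoplanin receptor gene Clec1b, a platelet gene, had no reads.

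Other surface markers of mesenchymal and skeletal stem cells were set beside the 8. Of 35 listed genes 28 were tested, and at day 10 against day 1, 14 were higher and 1, Itgav, lower. Over all genes 24.3% were higher and 25.1% lower. The list median was 0.64, beside -0.01 over all genes. Cd200 was the highest (0.813 ± 0.623 to 71.2 ± 94.8 CPM, SD, log2 4.42 ± 0.69, adjusted p = 0.00011), followed by the cadherin gene Cdh11 (0.765 ± 0.211 to 40.7 ± 48.5 CPM, SD, 3.96 ± 0.60, adjusted p = 9.2e-05) and the interferon-inducible Bst2 (10.6 ± 2.37 to 60.2 ± 23.4 CPM, SD, 2.34 ± 0.38, adjusted p = 0.00017). The progenitor genes Kit, Prom1, Ngfr, Dpp4 and Cd34 were below the level tested, and Prom1 had no reads. On day 3 against day 1, 8 of the 28 were higher and 3 lower, where 15.7% of all genes were higher and 16.1% lower. From day 5 to day 10, 2 were higher and 2 lower, against 3.75% and 2.02% of all genes.

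**Figure D4:**
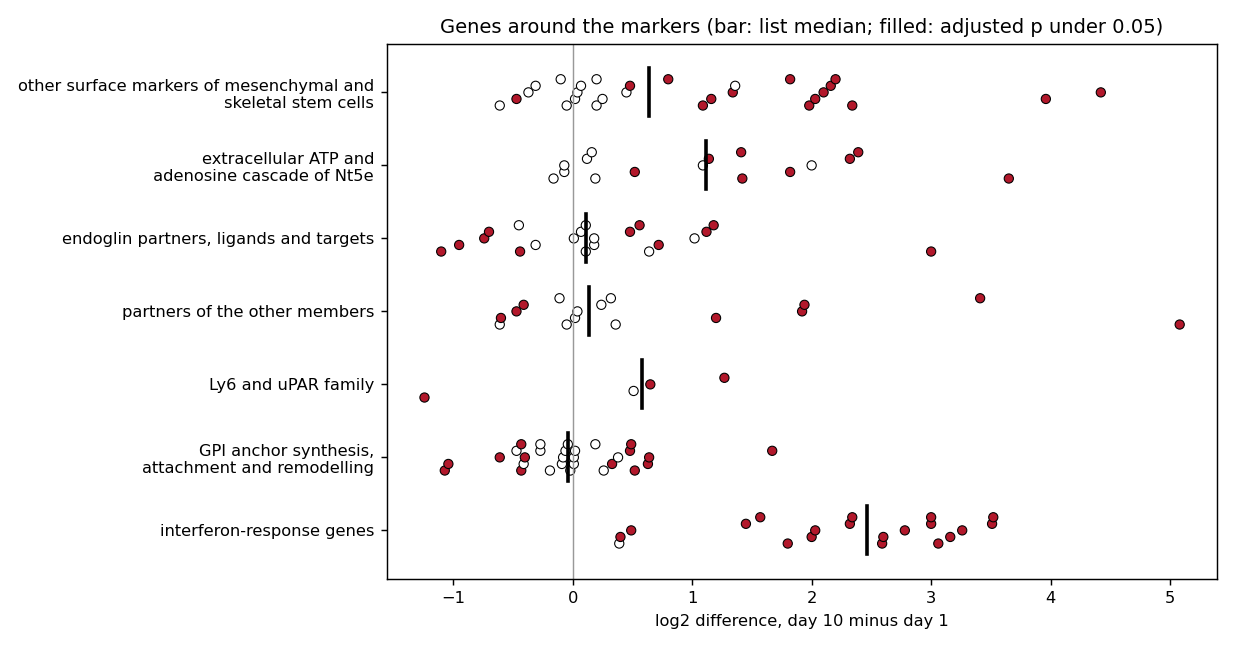
Log2 difference of day 10 minus day 1 (x axis) for each tested gene of 7 lists around the markers (rows), with the list median as a bar and genes past an adjusted p of 0.05 filled. Interferon-response genes have a median of 2.46, and GPI anchor genes a median of -0.04.

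The genes whose course was most like that of each marker were found by Pearson's r over all 15 libraries on log2(CPM + 1), among genes with a mean of at least 5 CPM, leaving out small RNA genes and predicted or clone-named genes. For Cd24a they were Ppp1r11 (r = 0.985) and Ankrd13c (0.966), for Nt5e the kinase gene Pdk1 (0.958) and the carbonic anhydrase gene Car9 (0.938), and for Ly6a S100a6 (0.961) and Anxa1 (0.960). Car9 had means of 8.49, 28.6, 31.98 and 87.0 CPM in order of day, and S100a6 393, 219, 335 and 284 CPM. For Pdpn they were Esm1 (0.941) and the protease gene Ctsk (0.921). The r values were lower for Eng (Coq7, 0.866, and Fam110a, 0.856), Mcam (Pkp4, 0.864, and Mmp15, 0.856), Thy1 (Abhd12, 0.837, and Apol6, 0.836) and Alcam (Daam1, 0.802, and Ubfd1, 0.731). Libraries of 1 day share that day's level, so the 15 points are not independent. For each marker 10153 or 10154 genes were searched, and the values describe likeness only.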

How the data were processed

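Total RNA of 4 samples, 1 per day of culture, went into libraries after removal of ribosomal RNA (labels' protocols). STAR, featureCounts, edgeR and the build GRCm38 appear in the submitters' processing notes, with no version. No source used here gives the strand setting or annotation, so overlapping genes on opposite strands may share reads. The deposited values are a normalized signal per gene in 15 libraries, scaled by the authors and called CPM here. Each value divided by the smallest one of its column was whole in 100% of cases (tolerance 0.001), and that step was taken as 1 read. Columns were assigned to days by name.

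The main test was limma 3.58.1 with a mean-variance trend on log2(CPM + 1), over all libraries at once, with Benjamini-Hochberg adjustment (threshold 0.05) across the 12109 genes whose 4 day means averaged at least 1 CPM. The log2 scale understates changes of low genes. Log2 differences, SE and adjusted p come from it unless another tool is named. The procedure was tested on simulated data. Members, gene lists and rules were chosen with earlier results of these data known. The genes named are the 8 members, the 2 most like each, up to 3 highest and 3 lowest past the test in each list, and direct partners. Genes named as markers, copies, antisense neighbours or further list genes were added after their values were seen. Alternatives were other pseudocounts, filters and scaling, edgeR 4.0.16 and DESeq2 1.42.0 on the recovered reads, a replicate block, library weights and leaving out libraries. Coordinates are from GENCODE M21 (GRCm38). Intervals and the limit for 0 reads (3 reads) cover counting error only, since the reads carry no molecular identifiers.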

Additional observations from a re-analysis of the deposited data

Results flagged for a closer look

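In 24 sets of 4 libraries (8 genes on days 3, 5 and 10) a library was looked for that stood far from the other 3, and 3 such values were found. Chance alone gives such a value in about 1 of 20 sets. All 3 belong to library 2. On day 3 library 2 held 711 CPM of Cd24a, where the next highest held 471, and 30.1 CPM of Ly6a, where the next highest held 6.08. On day 5 library 2 held 41.1 CPM of Ly6a, where the next highest held 11.8.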

How the results depend on the processing

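Of 1122 alternative values for the 36 differences of the 6 tested markers, 1010 kept their direction and their side of the threshold, 42 lost a call, 48 gained one and 22 changed sign, none of these with a call. Cd24a and Nt5e on day 10 against day 1, and Cd24a on day 5 against day 1, passed under all 32 alternatives run, at -2.20 to -1.86, 1.64 to 2.70 and -2.77 to -2.14.

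The number of markers called, 2, 1, 0, 3, 3 and 0 for day 3 against day 1, day 5 against day 3, day 10 against day 5, day 10 against day 1, day 5 against day 1 and day 10 against day 3, and 2 for any difference, changed as follows. With libraries left out, 1 day's library or 1 number at a time, the counts were 1 to 3, 0 to 2, 0 to 0, 2 to 4, 1 to 4, 0 to 1 and 2 to 3. Without the libraries numbered 3, Nt5e was lost on day 3 (adjusted p = 0.061) and day 5 (0.057). With library weights the counts were 4, 3, 3, 5, 5, 4 and 6. That fit called 4051 to 10679 of all 12109 genes (main test 699 to 6686). With libraries 3 and 4 averaged into 1, day 5 against day 3 had 0, in a fit that called 27 of all 12122 genes there (main test 1106). Fits with libraries 1 and 2 alone and with libraries 3 and 4 alone were added after seeing the data. Libraries 3 and 4 alone gave 3 for day 5 against day 3, 1 for day 10 against day 5 and 1 for day 10 against day 3. Of all 12063 genes in that fit, 2096, 1447 and 4368 were called in turn. These fits hold fewer libraries. With libraries 1 and 2 alone day 1 is a single library, assumed to vary like the other groups, so calls of that fit are not counted here. There Cd24a on day 3 against day 1 was at -1.53.

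The library number was not taken as a pairing, as the labels give it no meaning. In deviations from the day means, 17 of 21 same-numbered pairs correlated over 0.1 (median 0.258, lowest -0.0672). So did 12 of 63 other pairs (median -0.0938), mostly of libraries 3 and 4 (up to 0.549). Whether the numbers mark pairs or sets was not tested. With a replicate block on the number, the markers called were 3, 6 and 5 for days 3, 5 and 10 against day 1. They were 2 for day 10 against day 3 and 4 for any difference. Of all genes this fit called 4904, 6976, 6851, 3755 and 7990 in turn. Ly6a then passed for day 3 (-2.17, adjusted p = 0.00059), day 5 (-1.24, 0.0095) and day 10 (-1.11, 0.017) against day 1 and for day 10 against day 3 (1.06, 0.025). Pdpn gained day 5 against day 1 (0.67, 0.031) and day 10 against day 3 (0.90, 0.0094), Eng day 10 against day 1 (-0.47, 0.043) and Mcam day 5 against day 1 (-0.61, 0.047). No call was lost.

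Signs turned for Eng from day 5 to day 10 (-0.02 without library 2 of day 10, -0.04 without libraries numbered 2) and from day 3 to day 10 (0.01 without library 2 of day 3, 0.04 without libraries numbered 3). For Nt5e they turned from day 3 to day 10 (-0.07 without library 2 of day 10, -0.12 without libraries numbered 2, -0.40 with libraries 3 and 4 alone) and from day 5 to day 10 (-0.10 with libraries 3 and 4 alone). For Ly6a from day 5 to day 10 the values were -0.16, -0.03, -0.07 and -0.21 without library 1 of day 5, library 3 of day 5, library 2 of day 10 and the libraries numbered 1, -0.15 with edgeR, -0.13 with DESeq2 and -0.15 with edgeR and no filter. For Mcam from day 1 to day 3 they were 0.02 without library 2 of day 3, 0.02 without libraries numbered 2, 0.00 with the replicate block, 0.27 with library weights and 0.36 with libraries 3 and 4 alone, from day 5 to day 10 -0.41 with library weights, and from day 1 to day 10 0.11 with libraries 3 and 4 alone. Over the fits that left out 1 library or 1 library number, these differences ranged from -0.04 to 0.15 and from -0.23 to 0.04 for Eng, from -0.12 to 0.81 for Nt5e (day 10 against day 3), from -0.21 to 0.64 for Ly6a and from -0.46 to 0.02 for Mcam (day 3 against day 1). The cause was not tested. Depth limits Thy1, Alcam and Pdpn, which had 0 to 83 reads in a library. It also limits Eng, with 17 to 45 reads in a library, and Mcam, with 13 to 77.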

Other observations

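The proteins encoded by Cd24a, Thy1, Ly6a and Nt5e carry a GPI anchor, and the genes that make and attach it were also looked at. Of 31 listed genes 30 were in the table and 29 were tested, and at day 10 against day 1, 7 were higher and 6 lower, with a median log2 difference of -0.04. Over all genes 24.3% were higher and 25.1% lower, so the count is near the background and is no result about the list. Piga, which takes part in the first step of anchor synthesis, fell by 1.07 ± 0.16 on the log2 scale (25.1 ± 2.77 CPM at day 1, 11.5 ± 2.20 at day 10, adjusted p = 0.0001), and Pigf (-1.04 ± 0.27, adjusted p = 0.0047) and Pigw (-0.61 ± 0.15, adjusted p = 0.0041) were lower too. Pigs, a subunit of the enzyme that attaches the anchor, rose from 59.1 to 93.5 CPM (0.64 ± 0.12, adjusted p = 0.00061). Gpld1, an enzyme that cuts the anchor, rose from 0.745 to 4.65 CPM (1.67 ± 0.24, adjusted p = 5.2e-05).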
